A study of Mus musculus with 31 samples.

Results

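The merged transcript assembly of mouse hippocampus held 27094 loci, and 1345 of them carried an assembly number (MSTRG) with no gene name. The 663 unnamed loci with an FPKM (fragments mapped to a locus, scaled to transcript length and to the mapped fragments of the library) above 1 in at least 10 of the 31 mice are described here. RNA of the hippocampus was sequenced from 10 db/db-IF, 10 db/db and 11 db/m mice, 1 library each, all male, of strain C57BLKS/J and labelled 3-month. Groups are those of the labels, and the group sizes in the study's own account of these libraries differ from them. Both db/db-IF and db/db mice carry 2 copies of db, an allele of the leptin receptor gene Lepr that in 2 copies makes mice obese and diabetic, whereas db/m mice carry 1. The db/db-IF mice were put on intermittent fasting (IF), with food withheld every other day, and both other groups ate ad libitum. No fasted db/m mice are among the samples, so a response to fasting without the db genotype is outside the design. Because whole tissue was sequenced, fewer cells of a type and less RNA per cell cannot be told apart.

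An assembler joins overlapping reads into transcripts and calls a locus unnamed when no transcript of the reference annotation overlaps it. Such loci can be long non-coding RNAs, ends of messenger RNAs that run past the annotated stop, introns kept in nuclear RNA, transcribed enhancers or copies of a gene elsewhere in the genome. Brain is known for long 3′ ends of messenger RNAs and for a large number of tissue-restricted non-coding transcripts. The files gave neither coordinates nor sequence for these loci, so the account below rests on their levels and on their place in the numbering.

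The assembly numbers run along the genome, which gave most unnamed loci a rough address. Of 18787 named loci whose nearest named neighbours both lay on 1 chromosome in RefSeq (GRCm38.p6), 18714 (99.61%) lay on that chromosome themselves. The order along a chromosome was looser, since the start rose with the number in 14200 of 17051 neighbouring pairs of named loci (83.3%). By the same reading 557 of the 663 unnamed loci could be placed on a chromosome and 106 could not. Chromosome 2 held the most with 49, followed by chromosome 5 with 45, chromosome 3 with 42 and chromosome 9 with 37, while chromosome 16 held 15. Of the 106 others, 72 had a neighbour without a single RefSeq position, 23 had neighbours on different chromosomes, and 11 were numbered above the mitochondrial loci, where the order of genes starts again on mixed chromosomes. A protein-coding gene was the nearest named neighbour on at least 1 side for 601 unnamed loci and on both sides for 332. For 10 of them both neighbours were loci of 1 gene, as for MSTRG.15759, numbered between loci of Atp2b1, a plasma membrane calcium pump gene, and MSTRG.8972, numbered between loci of Gars, the glycyl-tRNA synthetase gene.

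The stretches that held unnamed loci were long. For 460 loci the genes on both sides were in rising order and did not overlap, and the distance between them had a median of 222 kb (quartiles 50.3 and 825 kb). The 7983 stretches between named loci with consecutive numbers had a median of 32.1 kb (quartiles 3.44 and 170 kb). Where both strands were known, the bordering genes pointed the same way for 216 of 386 unnamed loci (56.0%), toward each other for 93 (24.1%) and away from each other for 77 (19.9%). In the stretches between named loci these shares were 46.3%, 26.9% and 26.8%. These distances and shares are a description, since 1 stretch can hold several unnamed loci and was then counted once for each. The stretches between consecutive numbers hold no further locus by definition, and a longer stretch has more room for one. The 2 medians are thus not a comparison of like stretches. GENCODE M21, an annotation richer than the one behind the table, listed no gene absent from the table in the stretch of 90 unnamed loci, exactly 1 in that of 71 and 2 or more in that of 299.

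Some facts of the whole table touch every result below. Hippocampal and neuronal markers were present, among them Neurod6 (mean 48.2 FPKM in db/db-IF, 76.6 in db/db and 52.2 in db/m mice), C1ql2, Wfs1 and Snap25. Of 3 markers each, 2 neuronal (Snap25 and Syt1), 2 microglial (Cx3cr1 and Csf1r), 1 astrocyte (Slc1a3), 1 endothelial (Flt1) and 1 thalamic marker (Rora) were called lower in db/db-IF mice than in the other mice. Of 6 subfield markers Prox1 and Neurod6 were lower and Bok was higher, against 30.9% lower and 26.8% higher over all tested loci. In db/db against db/m mice Neurod6 and Syt1 were higher and Gfap lower. Choroid plexus markers varied widely within each group, with a summed FPKM of 4220 to 31698 in db/db-IF, 769 to 26218 in db/db and 668 to 33003 in db/m mice. All 3 blood markers (Hba-a1, Hbb-bs and Alas2) were higher in db/db-IF mice than in the other mice, with summed FPKM of 111 to 437 in db/db-IF, 73.1 to 194 in db/db and 62.2 to 132 in db/m mice. The part of these markers in the results below was not tested. The slope of each mouse's deviation in log2 FPKM on the log2 length of the transcript, over 12298 named loci, was -0.24 to -0.05 in db/db-IF, -0.04 to 0.07 in db/db and 0.00 to 0.08 in db/m mice, with db/db-IF mouse 7 lowest. Of the db/db mice, mouse 10 stood nearest the db/db-IF mice, with a slope of -0.04 against 0.00 to 0.07 in the other db/db mice, and the counts of calls and of separated loci are also given without it. Since every db/db-IF mouse had a lower slope than every other mouse, this slope and the IF group cannot be told apart. The libraries also fell into a set of lower and a set of higher read quality, each holding mice of every group. Lepr itself was low, with medians of 0.20 FPKM in db/db-IF, 0.20 in db/db and 0.43 in db/m mice, and was not tested.

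Most unnamed loci were low and a few were very high. Their mean FPKM had a median of 3.18 (quartiles 1.63 and 7.72, range 0.80 to 634), against 16.2 for the 11365 tested loci with 1 established gene name and 3.33 for the 1875 with only a predicted name. A mean above 10 FPKM was found in 140 of them and one above 100 in 14, and the 10 highest held 39.0% of the FPKM of all 663. In each mouse the sum over the 663 loci was 8607 to 10289 FPKM in db/db-IF (median 9401), 8382 to 9631 in db/db (median 8919) and 8294 to 9111 in db/m mice (median 8774). These are 0.65%, 0.63% and 0.62% of all FPKM at the median of the db/db-IF, db/db and db/m mice, and the 3 ranges overlap. The number of these loci above 1 FPKM was similar as well, with medians of 610 in db/db-IF, 610.5 in db/db and 607 in db/m mice. All 31 mice were above 1 FPKM for 416 loci. For 2 loci the mice above 1 FPKM were of 1 group only, and for 11 at least 1 group had no mouse above 1, so their entry rested on the groups where they are high. Just inside the limit were MSTRG.8126, MSTRG.18643 and MSTRG.15016, with 1.006, 1.012 and 1.014 FPKM in the mouse ranked 10 from the top. Just outside were MSTRG.6855, MSTRG.5631 and MSTRG.15686 with 0.994, 0.993 and 0.983 FPKM in that mouse.

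The 4 unnamed loci described here, all among the 10 highest, exceeded the named loci beside them. MSTRG.6944, whose nearest named neighbours are LOC105247048 and the locus of Orc5, a subunit of the origin recognition complex, had 649 to 840 FPKM in db/db-IF (median 720), 535 to 695 in db/db (median 606) and 522 to 630 in db/m mice (median 569), while these neighbours averaged 24.0 and 294 FPKM. MSTRG.5067, numbered between the tubulin ligase gene Ttll7 and Gm6439 on chromosome 3, had 653 to 894 in db/db-IF (median 746), 511 to 657 in db/db (median 540) and 507 to 657 in db/m mice (median 577). Both genes beside MSTRG.5067 averaged under 1 FPKM (0.62 and 0.55). MSTRG.16640 stood in a stretch of only 7984 bases on chromosome 11 between the 3′ ends of Galnt10 (end 57787514), a glycosyltransferase gene, and 2010001A14Rik (start 57795499). GENCODE lists no gene absent from the table in that stretch. The level of MSTRG.16640 was 421 to 549 FPKM in db/db-IF (median 497), 503 to 602 in db/db (median 549) and 538 to 622 in db/m mice (median 557), while Galnt10 averaged 0.76 and 2010001A14Rik 0.30 FPKM. MSTRG.18333 (mean 341 FPKM) came next in level and is described further below. After it came MSTRG.14668 (mean 330 FPKM), which averaged 310 ± 33.2 FPKM in db/db-IF, 332 ± 19.3 in db/db and 347 ± 20.5 in db/m mice (SD, n = 10, 10 and 11). Its neighbours Golga4 and Ctdspl averaged 25.3 and 9.33 FPKM. The ranges of the groups overlapped in all 4, though db/db-IF mice stood above nearly all others for MSTRG.6944 and MSTRG.5067. The other members of the 10 highest were MSTRG.18333, MSTRG.9801, MSTRG.24456, MSTRG.18810, MSTRG.22459 and MSTRG.22093, of which MSTRG.18810 (mean 213 FPKM) was below its neighbour Sel1l (328).

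Some neighbouring loci kept a constant ratio of levels over the mice. In 19 pairs of loci with numbers at most 3 apart, of which at least 1 was among the 663, the ratio of the FPKM values was constant over the 23 to 30 mice in which both exceeded 0.5 FPKM. The SD of the log2 ratio in these pairs was at most 0.0015, against a median of 0.43 over 2526 such neighbouring pairs, and the next pair had 0.029. A pair was called fixed in ratio at an SD under 0.01, a limit chosen after the values were seen. Both loci belonged to the 663 in 7 pairs, and in 11 the partner was a named locus. MSTRG.25573 and a neighbouring locus listed under the name of Cycs, the cytochrome c gene, had a ratio of 1.0. MSTRG.3923 stood at 4.93 times a locus listed under Nlgn1, a synaptic adhesion gene. Other partners were listed under Lzic, Rb1, Rbpj, Wtap, Zbtb25 and Rfwd2. Whether each of these loci is the gene itself or a copy of it elsewhere in the genome was not tested. In 18 of the 19 pairs 1 of the loci was listed at 0 in at least 1 mouse, and no mouse had both loci of a pair at or below 0.5 FPKM. The locus listed under Cycs was at 0 in 5 mice, and MSTRG.25573 in 1 mouse. The cause of the constant ratios was not tested.

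**Figure D1:**
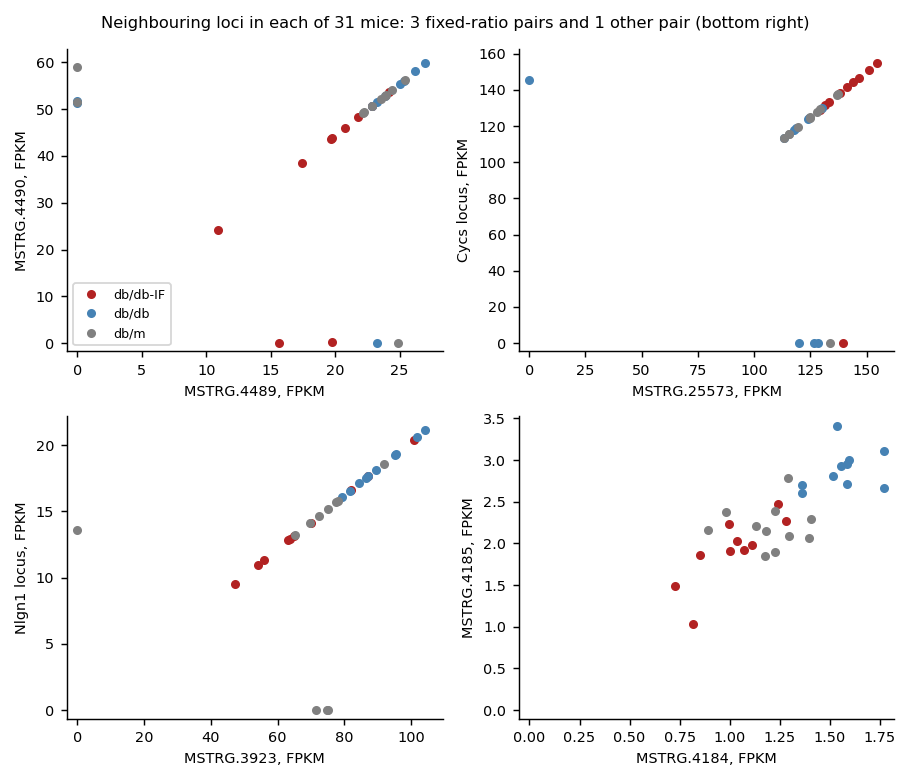
FPKM of 2 neighbouring loci in each of the 31 mice (points, coloured by group) for 3 pairs fixed in ratio and for MSTRG.4184 and MSTRG.4185, which are not (bottom right). In the fixed pairs the points lie on a line through the origin except for mice in which 1 locus is at 0, whereas the log2 ratio of MSTRG.4184 to MSTRG.4185 had an SD of 0.21 over 31 mice.

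A related pattern was a level that was either steady or 0. For 12 of the 663 loci (1.81%) the mice of at least 1 group fell into a high and a low set of at least 2 mice each, with over 2 units of log2(FPKM + 1) between the sets. The share was 1.93% over all 17139 tested loci, a similar share. MSTRG.18333, between Sostdc1 and Ispd on chromosome 12, was listed at 0 in 3 db/db and 2 db/m mice and at 265 to 519 FPKM in the other 26 mice. In the 5 mice at 0 the neighbour Sostdc1 averaged 3.64 FPKM, against 2.73 in the others, and Ispd averaged 2.56 against 2.41. Of genes absent from the table, GENCODE M21 lists in that stretch the long non-coding gene Gm34215 and a small nucleolar RNA gene, Gm25438. Whether either is MSTRG.18333 was not tested. MSTRG.21678, between Phf20l1 and Zfat on chromosome 15, was at 0 in 4 of 10 db/db mice and at 40.9 to 67.5 FPKM in every other mouse. MSTRG.2648, MSTRG.9390 and MSTRG.4642 had at most 2.16 FPKM in 3, 6 and 4 mice and at least 12.9 in the rest.

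Over the 12 split loci, 50 values lay on the low side, 40 of them listed at exactly 0, and they were spread over 26 mice with at most 4 loci in 1 mouse. The low values numbered 9 in db/db-IF, 22 in db/db and 19 in db/m mice. Of the split loci 4 also belonged to pairs fixed in ratio, among them MSTRG.4489 and MSTRG.4490, which were partners of each other and were low in different mice. Only MSTRG.21678 passed the test in any comparison below, with a log2 difference of 2.62 ± 0.71 (SE, adjusted p = 0.0031) for db/db-IF over db/db mice and of -2.37 ± 0.61 (adjusted p = 0.015) for db/db mice over all others, values set by the 4 db/db mice at 0.

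**Figure D2:**
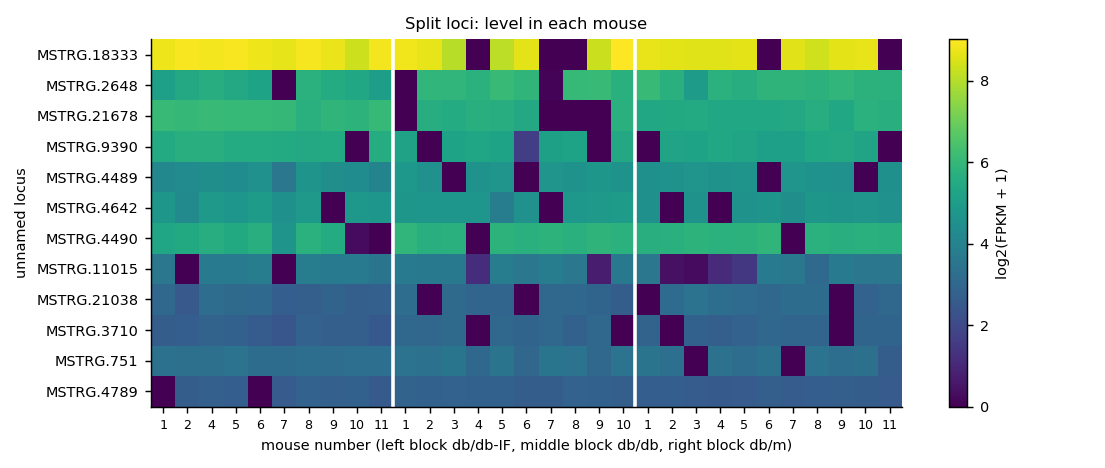
Level of the 12 split loci (rows) in each mouse (columns, blocks from left to right db/db-IF, db/db and db/m), as log2(FPKM + 1). Dark cells are mice at or near 0, and they are spread over 26 mice, with db/db mice 4 and 7 low for 4 loci each.

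The first comparison, db/db-IF mice against db/m and db/db mice combined, gave the most calls among unnamed loci. The level was higher in db/db-IF mice for 220 of 663 (33.2%, against 26.8% of all tested loci) and lower for 193 (29.1%, against 30.9% of all tested loci), by limma on log2(FPKM + 1) with Benjamini-Hochberg adjustment over the 17139 loci at an adjusted p under 0.05. The median log2 difference was 0.04 over the unnamed and -0.03 over all tested loci. Loci with an established gene name had 19.5% higher and 36.3% lower, and loci with a predicted name 35.8% higher and 20.4% lower. The median size of the called differences was 0.39 upward and -0.32 downward, with 68 above 0.5 and 43 below -0.5. Within the lower read-quality set 194 were higher and 130 lower, and within the higher set 96 and 134. With the slope on transcript length in the model, 1 was higher and 2 were lower, and 334 of the 413 kept their direction. The share of all tested loci called was 45.1% in the lower set, 31.9% in the higher set and 0.992% with the slope, against 57.7% without these steps.

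**Figure D3:**
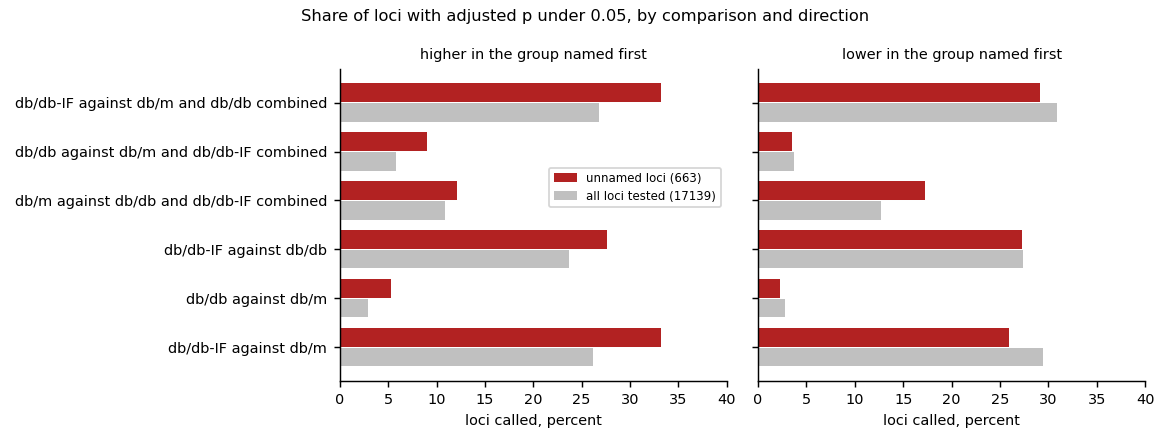
Percent of loci with an adjusted p under 0.05 in each of 6 comparisons, for the unnamed loci (red) and for all tested loci (grey), split by direction in the group named first. The red bars exceed the grey ones in the higher direction for every comparison (for example 33.2 against 26.8% in db/db-IF mice), and the comparisons with db/db-IF mice have the longest bars.

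Lower in db/db-IF mice were 4 of the 10 highest loci, and 2 of these are numbered next to a gene for a subunit of the NMDA receptor, the glutamate-gated channel of excitatory synapses. MSTRG.9801, numbered between H2afj and Grin2b on chromosome 6, had 92.7 to 243 FPKM in db/db-IF (median 178), 265 to 392 in db/db (median 332) and 229 to 343 in db/m mice (median 285). H2afj starts above Grin2b on the chromosome (136808248 against 135713221), the reverse of the numbering, so the numbering does not place MSTRG.9801 between these genes. All but the highest db/db-IF mouse lay below every mouse of both other groups. The log2 difference was -0.89 ± 0.11 (SE, adjusted p = 9.36e-08), while the Grin2b locus itself was higher in db/db-IF mice by 0.82 (adjusted p = 2.92e-06). MSTRG.22459, between Gm5767 and Grin2a on chromosome 16, had 85.8 to 170 FPKM in db/db-IF (median 142), 193 to 253 in db/db (median 226) and 142 to 210 in db/m mice (median 189). Its db/db-IF mice lay below all db/db mice and overlapped with db/m mice. The log2 difference was -0.57 ± 0.09 (adjusted p = 7.20e-06), and that of the Grin2a locus was -0.37 (adjusted p = 0.0066). MSTRG.16640 (-0.16, adjusted p = 0.00028) and MSTRG.14668 (-0.14, adjusted p = 0.0081) differed by smaller amounts.

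The loci with the smallest adjusted p that fell in db/db-IF mice were MSTRG.7419, MSTRG.20929, MSTRG.1908, MSTRG.1837 and MSTRG.25190. MSTRG.7419 stood in a stretch of 36.0 kb on chromosome 5 between the 3′ ends of Slc30a9, a zinc transporter gene, and Bend4, where GENCODE M21 lists 1 gene absent from the table, the long non-coding Gm43698. It had 2.51 to 3.50 FPKM in db/db-IF (median 2.78), 3.88 to 5.58 in db/db (median 4.39) and 3.97 to 5.30 in db/m mice (median 4.51), so that every db/db-IF mouse lay below every other mouse. Its log2 difference was -0.52 ± 0.05 (adjusted p = 4.22e-09), against -0.16 for Slc30a9 and -0.33 for Bend4, both also called. It was 1 of the 2 loci that stayed called and lower with the slope on transcript length in the model (-0.42, adjusted p = 0.024). The other lower one was MSTRG.5667, between Gm11249 and Brinp1, a neuronal cell-cycle inhibitor gene, on chromosome 4 (-0.44, adjusted p = 0.037), and the higher one, MSTRG.11865 between Gpi1 and Cers4, had 0.57 (adjusted p = 0.038) there but 0.14 (adjusted p = 0.18) without the slope.

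MSTRG.1908, numbered between Thnsl1 and Gpr158, an orphan receptor gene expressed in neurons, had 5.07 to 10.6 FPKM in db/db-IF (median 7.74), 10.1 to 15.7 in db/db (median 13.0) and 12.6 to 16.7 in db/m mice (median 14.7). The db/db-IF mice overlapped only with the lowest db/db mouse. Its log2 difference was -0.81 ± 0.08 (adjusted p = 7.07e-09), and the Gpr158 locus was lower as well (-0.55, adjusted p = 8.76e-08). MSTRG.20929, beside Pinx1 on chromosome 14, had a log2 difference of -0.73 ± 0.07 while Pinx1, which encodes a telomerase inhibitor, was higher by 0.26. MSTRG.1837, beside Stam on chromosome 2, had -0.49 ± 0.05, and Stam, a gene for an endosomal sorting adaptor, had -0.39. A gene beside an unnamed locus thus moved with it in some cases and against it in others.

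**Figure D4:**
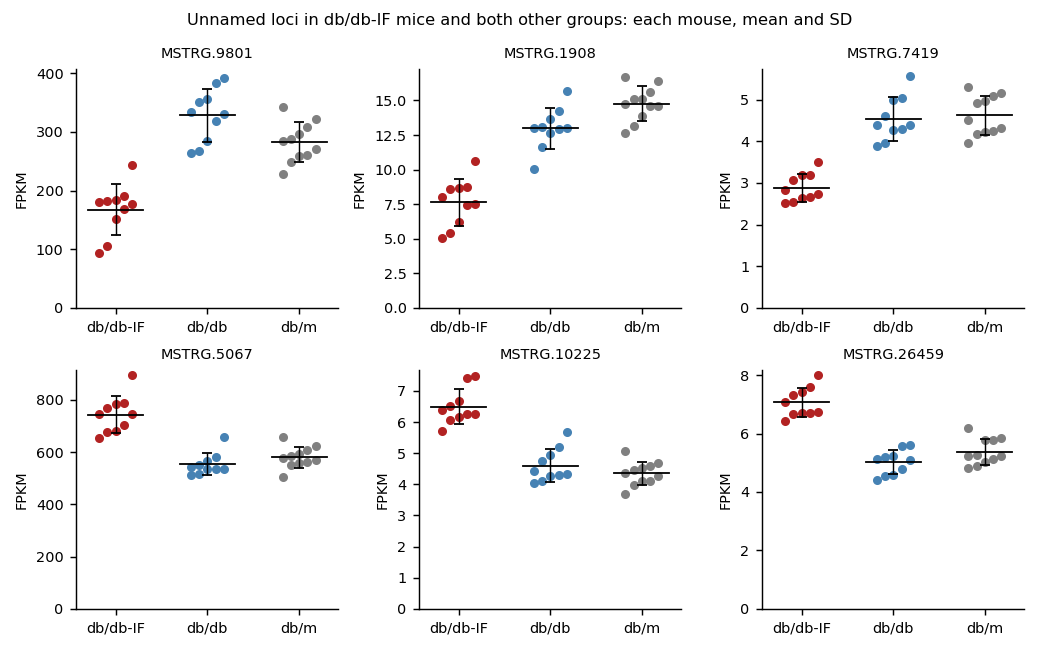
FPKM of 6 unnamed loci in each mouse (points), with the mean (line) and SD (bars) of 10 db/db-IF, 10 db/db and 11 db/m mice. The upper row shows loci that were lower in db/db-IF mice (log2 differences -0.89, -0.81 and -0.52 against both other groups combined) and the lower row loci that were higher (0.39, 0.46 and 0.38).

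Higher levels in db/db-IF mice had the smallest adjusted p for MSTRG.10225, MSTRG.6542, MSTRG.20727, MSTRG.20729 and MSTRG.26459. MSTRG.10225, between Hnrnpul1, a gene for a nuclear RNA-binding protein, and Cyp2s1 on chromosome 7, had 5.71 to 7.47 FPKM in db/db-IF (median 6.33), 4.03 to 5.67 in db/db (median 4.38) and 3.70 to 5.07 in db/m mice (median 4.37). The lowest db/db-IF mouse was above every mouse of both other groups. Its log2 difference was 0.46 ± 0.05 (adjusted p = 9.07e-09), and no GENCODE gene absent from the table lies in that stretch. MSTRG.20727 and MSTRG.20729 share the stretch between Mettl3, the catalytic subunit of the RNA m6A writer, and Dad1 on chromosome 14. Their levels were close, 4.36 to 6.73 and 4.09 to 6.29 FPKM in db/db-IF mice, 2.89 to 4.73 and 2.68 to 4.44 in db/db mice, and 2.73 to 3.74 and 2.46 to 3.47 in db/m mice. Their log2 differences were 0.53 ± 0.06 each, and the same 3 named loci (Fbxo42, Gm11808 and Mir682) were most alike to both over the 31 mice, so they should not be read as separate findings.

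MSTRG.26459, between Prrg1 and Mageb16 on the X chromosome, had 6.42 to 7.99 FPKM in db/db-IF (median 6.91), 4.42 to 5.62 in db/db (median 5.11) and 4.81 to 6.18 in db/m mice (median 5.23), with no overlap between db/db-IF and the rest. The log2 difference for db/db-IF over the rest was 0.38 ± 0.04 (adjusted p = 2.31e-08), whereas Prrg1 had -0.42. It is fixed in ratio to MSTRG.26460, at 6.24 times its level. Among the 10 highest loci MSTRG.6944 (0.31), MSTRG.5067 (0.39), MSTRG.24456 (0.42), MSTRG.18810 (0.32) and MSTRG.22093 (0.25) were higher in db/db-IF mice, with adjusted p between 3.72e-08 and 0.0012. The genes Flrt2 and Sel1l, numbered beside MSTRG.18810, were both lower (-0.49 and -0.48). The largest called difference upward, 1.66 ± 0.41 (adjusted p = 0.00098), was that of MSTRG.22860, whose nearest named locus above is Gap43, a growth cone gene, 8 numbers on, and this locus was picked out after its values were seen. Its level scattered from 0.23 to 25.6 FPKM in db/db-IF mice, against 0 to 6.59 in db/db and 0.25 to 5.35 in db/m mice, and the ranges overlapped. It stood in a dense run of unnamed loci, many of them also called higher, among them MSTRG.22855 (0.90), MSTRG.22859 (0.83) and MSTRG.22862 (0.73). MSTRG.22851, MSTRG.22852 and MSTRG.22863 in this run were not called. Whether the loci of the run are separate transcripts was not tested.

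Without overlap, every db/db-IF mouse lay above every other mouse for 7 unnamed loci (1.06%, against 1.37% of all tested loci) and below for 12 (1.81%, against 1.45%). Without db/db mouse 10 these counts were 15 (2.26%, against 2.46%) and 26 (3.92%, against 2.79%). The 7 include both MSTRG.26459 and MSTRG.26460, which are fixed in ratio and should not be read as separate findings. MSTRG.26460 exceeded 1 FPKM in db/db-IF mice only, so it was included through the group in which it is high, and its separation is a description. The widest gap was that of MSTRG.10754, 3 numbers from Snhg14, a long host transcript of small nucleolar RNAs in the imprinted Prader-Willi region of chromosome 7. It had 2.42 to 26.1 FPKM in db/db-IF (median 23.4), 32.3 to 56.1 in db/db (median 45.2) and 33.7 to 46.1 in db/m mice (median 41.5). The log2 difference was -1.16 ± 0.20 (adjusted p = 1.54e-05), and Snhg14 itself, at a mean of 1.81 FPKM, had -0.33 (adjusted p = 1.61e-05). For db/db mice no locus stood wholly above or below both other groups (0 of 663, against 0.035% and 0.00583% of all tested loci), and for db/m mice none stood wholly above (against 0.0408%). The lowest value of MSTRG.10754, 2.42 FPKM, was that of db/db-IF mouse 7, which also had the lowest slope on transcript length. With that slope in the model the difference of MSTRG.10754 was 0.29 and not called. MSTRG.23350, MSTRG.28042 and MSTRG.25190 also lay wholly below, and MSTRG.6542, MSTRG.5774, MSTRG.2049 and MSTRG.28067 wholly above.

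The named loci on either side were more often lower than higher in db/db-IF mice, as were all loci with an established name (19.5% higher and 36.3% lower). For the 220 unnamed loci with higher levels, 322 of their neighbours were tested, of which 77 were higher (23.9%) and 129 lower (40.1%). For the 193 that were lower, 55 of 314 tested neighbours were higher (17.5%) and 126 lower (40.1%). For the 250 that were not called, 75 of 405 were higher (18.5%) and 155 lower (38.3%). Within groups, the correlation between an unnamed locus and its neighbour over the 31 mice, after the group means were taken out, had a median r of 0.06 over 998 pairs (quartiles -0.12 and 0.27), and that of neighbouring named loci of different genes a median of 0.07 over 10716 pairs. These correlations share library and depth and are given as a description.

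Against db/db mice alone, the level of 183 unnamed loci was higher (27.6%, against 23.7% of all tested loci) and 181 lower (27.3%, against 27.4%). The comparison asks which levels fasting shifted within the db/db genotype. MSTRG.2812, between the potassium channel gene Kcna4 and Gm13910 on chromosome 2, had 1.17 to 2.26 FPKM in db/db-IF mice (median 1.75), against 2.81 to 4.54 in db/db mice (median 3.82), and these groups did not overlap. Its log2 difference was -0.83 ± 0.08 (adjusted p = 6.69e-08), and Kcna4 had -0.48 (adjusted p = 4.70e-06). MSTRG.5667 had 1.02 to 1.68 FPKM in db/db-IF mice (median 1.39), against 2.10 to 3.04 in db/db mice (median 2.61), and a log2 difference of -0.58 ± 0.06 (adjusted p = 8.68e-08). The smallest adjusted p of the higher loci, 1.61e-07, was again that of MSTRG.26459 (0.42 ± 0.05). Within the lower read-quality set 151 were higher and 120 lower, within the higher set 50 and 106, and with the slope in the model 3 and 7, among them MSTRG.2812 (-0.47), MSTRG.5667 (-0.50) and MSTRG.26459 (0.27). Of all tested loci 38.1%, 20.3% and 1.91% were called in these fits, against 51.1% without these steps.

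The comparison of db/db against db/m mice, which asks what goes with the db genotype, gave fewer calls. The level was higher in db/db mice for 35 (5.28%, against 2.96% of all tested loci) and lower for 15 (2.26%, against 2.79%). The called differences were small, with a median of 0.28 upward and -0.26 downward, 3 above 0.5 and none below -0.5. With the slope on transcript length in the model the counts were 53 and 21, and all 50 loci stayed called in the same direction. Within the lower read-quality set 12 were higher and 4 lower, and within the higher set limma called 0 (84 at an unadjusted p under 0.05). Of all tested loci 10.1% were called with the slope, 1.59% in the lower set and 0.00583% in the higher set, against 5.75% without these steps. Of 58 tested neighbours of the 35 loci 5 were higher (8.62%, against 2.96% of all tested loci) and 0 lower, and of 25 tested neighbours of the 15 lower loci 0 were called. For the 613 loci not called, 39 of 958 tested neighbours were higher (4.07%) and 23 lower (2.40%). A neighbour shared by several loci was counted once for each.

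MSTRG.11306 had the largest of these differences and was called in all 3 pairs of groups. It is numbered between Olfml1, a gene of the olfactomedin family, and Gm4199 on chromosome 7. That stretch of 502 kb holds 24 GENCODE genes absent from the table. Its level was 78.1 to 139 FPKM in db/db-IF (median 118), 79.2 to 101 in db/db (median 91.6) and 43.1 to 66.0 in db/m mice (median 56.2). Every db/m mouse lay below every mouse of both other groups, which was the case for no other unnamed locus (1 of 663, or 0.151%, against 0.07% of all tested loci), and every db/db-IF mouse but mouse 7, which lay below all db/db mice, stood above all db/db mice. The log2 difference was 1.004 ± 0.079 for db/db-IF over db/m mice (adjusted p = 3.20e-10), 0.36 ± 0.08 for db/db-IF over db/db mice (adjusted p = 0.00053) and 0.64 ± 0.08 for db/db over db/m mice (adjusted p = 3.29e-05). With the slope on transcript length in the model it was 0.49 for db/db-IF over db/db mice (adjusted p = 0.046) and 0.66 for db/db over db/m mice (adjusted p = 1.17e-05). Olfml1 had -0.64 for db/db-IF over db/m mice (adjusted p = 0.00024), and Gm4199, at -0.04, was not called.

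MSTRG.22456 was highest in db/db mice. The nearest named locus above is that of Usp7, a deubiquitinase gene, and Carhsp1, and it could not be placed since its neighbour below is a locus of Clcn3 from another chromosome. Its level was 5.34 to 8.08 FPKM in db/db-IF (median 6.83), 9.27 to 13.0 in db/db (median 11.8) and 5.85 to 9.65 in db/m mice (median 8.29). The db/db mice lay above all db/db-IF mice and overlapped with only the highest db/m mouse. The log2 difference was 0.50 ± 0.07 for db/db against db/m mice (adjusted p = 0.00014) and -0.68 ± 0.07 for db/db-IF over db/db mice (adjusted p = 1.86e-07). MSTRG.21319, between Ttc33 and the endocytic adaptor gene Dab2 on chromosome 15, had the same order of group means, 10.9 ± 1.84 in db/db-IF, 16.3 ± 1.68 in db/db and 11.8 ± 1.34 in db/m mice (FPKM, SD, n = 10, 10 and 11). For db/db against db/m mice it had a log2 difference of 0.44 ± 0.08 (adjusted p = 0.00089), and neither neighbour was called in that comparison.

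MSTRG.6868, numbered between the axon guidance gene Sema3e and Pclo, a gene of the presynaptic active zone, on chromosome 5, had 4.59 to 9.96 FPKM in db/db-IF (median 7.15), 7.71 to 10.5 in db/db (median 9.22) and 4.44 to 7.59 in db/m mice (median 5.96). The db/db and db/m mice did not overlap. The log2 difference between them was 0.58 ± 0.09 (adjusted p = 0.00021), with no GENCODE gene absent from the table in the stretch and both neighbours not called. Sema3e was among the 3 named loci most alike to it over the 31 mice after the group means were taken out (r = 0.74). MSTRG.14302, between the Ras exchange factor gene Rasgrf1 and Morf4l1 on chromosome 9, had 1.59 to 2.36 FPKM in db/db-IF (median 2.20), 1.51 to 2.29 in db/db (median 1.85) and 0.88 to 1.75 in db/m mice (median 1.07). All but 1 db/m mouse lay below every mouse of both other groups. The log2 difference for db/db against db/m mice was 0.40 ± 0.06 (adjusted p = 0.00035), and that of Rasgrf1 was 0.15 (adjusted p = 0.022).

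Of the loci lower in db/db mice, MSTRG.3466 and MSTRG.7217 had the smallest adjusted p. MSTRG.3466, in a stretch of 97.6 kb on chromosome 2 between Rpn2, an oligosaccharyltransferase subunit gene, and the kinase gene Src, had 0.66 to 0.92 FPKM in db/db-IF (median 0.73), 0.49 to 0.97 in db/db (median 0.75) and 0.95 to 1.67 in db/m mice (median 1.18). It was above 1 FPKM in 10 db/m mice and in no other mouse, so it was included through the group in which it is high. Its log2 difference for db/db against db/m mice, -0.35, is therefore given as a description, and the neighbours were not called. MSTRG.7217, beside the phosphatase subunit gene Ppp2r2c on chromosome 5, had 2.04 to 3.43 FPKM in db/db-IF (median 2.78), 2.64 to 3.93 in db/db (median 3.33) and 3.79 to 5.61 in db/m mice (median 4.62). The db/db and db/m mice overlapped in their extreme values only. Its log2 difference was -0.41 ± 0.06 for db/db against db/m mice (adjusted p = 0.00017) and -0.64 ± 0.06 for db/db-IF over db/m mice (adjusted p = 1.07e-08).

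**Figure D5:**
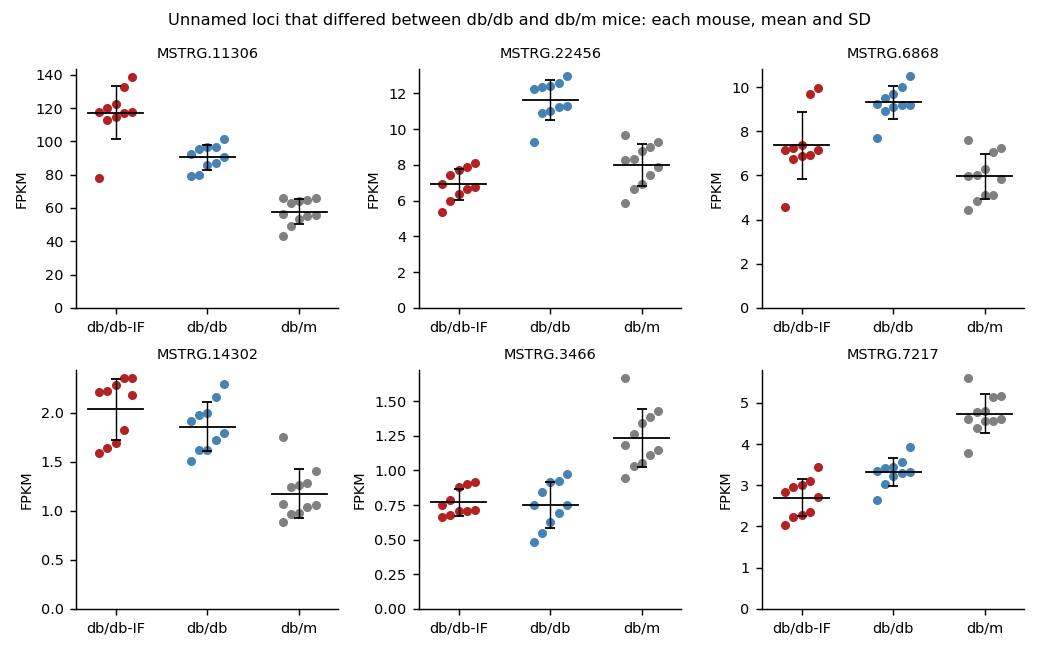
FPKM of 6 unnamed loci in each mouse (points), with the mean (line) and SD (bars) of 10 db/db-IF, 10 db/db and 11 db/m mice. MSTRG.11306, MSTRG.22456, MSTRG.6868 and MSTRG.14302 had higher levels in db/db mice, against db/m mice (log2 differences 0.64, 0.50, 0.58 and 0.40), and MSTRG.7217 was lower (-0.41). MSTRG.3466 (-0.35) exceeded 1 FPKM in db/m mice only and was included through them.

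Against all other mice, db/db mice were higher for 60 unnamed loci (9.05%, against 5.82% of all tested loci) and lower for 23 (3.47%, against 3.69%). MSTRG.22456 (0.58 ± 0.07, adjusted p = 3.82e-05), MSTRG.21319 (0.49 ± 0.07), MSTRG.15759 (0.33 ± 0.05), MSTRG.10793 (0.31 ± 0.05) and MSTRG.4184 (0.28 ± 0.05) led the higher ones. MSTRG.15759, numbered between 2 loci of Atp2b1, had 1.05 to 1.63 FPKM in db/db-IF (median 1.22), 1.40 to 2.34 in db/db (median 1.94) and 1.02 to 1.63 in db/m mice (median 1.38). The main locus of Atp2b1, at a mean of 201 FPKM, moved by a like amount (0.32, adjusted p = 0.00091). The other Atp2b1 locus beside it, at a mean of 1.63 FPKM, was not called (-0.02, adjusted p = 0.94). MSTRG.10793, beside Chrna7, which encodes a nicotinic acetylcholine receptor subunit, had 0.84 to 1.42 FPKM in db/db-IF (median 1.11), 1.36 to 2.18 in db/db (median 1.69) and 0.95 to 1.45 in db/m mice (median 1.24). The lower ones with the smallest adjusted p, MSTRG.7571, MSTRG.10649, MSTRG.21079, MSTRG.27894 and MSTRG.13264, had log2 differences of -0.35 to -0.14. Nearly all db/db mice were below 1 FPKM for MSTRG.21079 (0.55 to 1.11) and MSTRG.13264 (0.68 to 1.18). These loci were thus included largely through the groups in which they are higher, and their differences are a description. Within the lower read-quality set 4 loci were higher and 0 lower, and within the higher set limma called 0 (104 at an unadjusted p under 0.05), while of all tested loci 0.333% and 0% were called there, against 9.51% over both sets.

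The db/m mice differed from all db/db mice, fasted or not, in 195 unnamed loci, 80 higher (12.1%, against 10.9% of all tested loci) and 115 lower (17.3%, against 12.7%). MSTRG.7217 (0.52 ± 0.06), MSTRG.3466 (0.34 ± 0.05), MSTRG.13254 (0.34 ± 0.06), MSTRG.8972 (0.28 ± 0.05) and MSTRG.17976 (0.22 ± 0.04) led the higher ones. Lower in db/m mice were MSTRG.11306 (-0.82 ± 0.09, adjusted p = 7.96e-07), MSTRG.4369 (-0.69 ± 0.10), MSTRG.4155 (-0.57 ± 0.10), MSTRG.14302 (-0.44 ± 0.06) and MSTRG.3844 (-0.30 ± 0.05). Of these, MSTRG.3466 exceeded 1 FPKM in db/m mice only and MSTRG.3844 in no db/m mouse (9 db/db-IF and 9 db/db mice), so both were included through the groups in which they are high and their differences are a description. MSTRG.8972, numbered between 2 loci of Gars, had 0.91 to 1.60 FPKM in db/db-IF (median 1.34), 1.003 to 1.70 in db/db (median 1.45) and 1.43 to 2.26 in db/m mice (median 1.95), while the main Gars locus had -0.08 (adjusted p = 0.042) in the other direction. MSTRG.4369 lies between the locus of Gpatch4 and Apoa1bp, a gene for an NAD(P)HX epimerase, which are 525 bases apart on chromosome 3. It had 4.19 to 6.86 FPKM in db/db-IF (median 5.21), 2.89 to 5.37 in db/db (median 3.52) and 1.59 to 3.37 in db/m mice (median 2.46). The named loci most alike to MSTRG.4369 over the 31 mice were Mobp, Mbp and Plekhb1 (r = 0.76, 0.75 and 0.75), of which the first and second encode myelin proteins, while Mog and Mobp, markers of oligodendrocytes, were not called in db/db against db/m mice (log2 differences -0.07 and -0.05, adjusted p = 0.84 and 0.86). With the slope on transcript length in the model 19 loci were higher and 40 lower in db/m mice, within the lower read-quality set 11 and 26, and within the higher set 2 and 2. Of all tested loci 8.59%, 5.08% and 0.239% were called in these fits, against 23.6% without these steps.

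For db/db-IF against db/m mice, which differ in both genotype and feeding, the level of 220 unnamed loci was higher (33.2%, against 26.2% of all tested loci) and 172 lower (25.9%, against 29.4%). MSTRG.11306 (1.004 ± 0.079) and MSTRG.4369 (0.90 ± 0.09, adjusted p = 1.07e-08) led the higher ones. MSTRG.1908 (-0.89 ± 0.09), MSTRG.7217 (-0.64 ± 0.06), MSTRG.20929 (-0.78 ± 0.08) and MSTRG.9500 (-0.76 ± 0.08), the last beside the GABA transporter gene Slc6a11 (-0.69, adjusted p = 3.80e-06), fell. Within the lower read-quality set 201 were higher and 124 lower, within the higher set 70 and 106, and with the slope in the model 7 and 6, while of all tested loci 43.9%, 22.7% and 2.63% were called, against 55.6% without these steps.

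The region of Lepr was looked at apart, since the db allele and the chromosome around it differ between db/db and db/m mice. Lepr has no assembly number, so its place was taken from the locus of Leprot, the gene that starts at the same promoter region on chromosome 4 (Lepr, 101717137 to 101815352). Within 100 numbers of it lay 3 unnamed loci, MSTRG.5761, MSTRG.5774 and MSTRG.5785, all on the lower side. Their log2 differences for db/db against db/m mice were 0.09 ± 0.05, -0.01 ± 0.07 and -0.03 ± 0.10 (adjusted p = 0.34, 0.97 and 0.90). Of the 28 unnamed loci on chromosome 4, 3 were called in that comparison (10.7%), against 50 of all 663 unnamed loci and 5.75% of all tested loci. With 28 loci this difference in share is a matter of few loci and was not tested. The only one called among the 5 nearest on each side of Lepr was MSTRG.5698 (0.24 ± 0.07, adjusted p = 0.032), beside Lurap1l, and it lost its call when any one of db/db mice 2, 3, 8, 9 and 10 or db/m mice 4 and 10 was left out (log2 differences 0.20 to 0.23, adjusted p = 0.051 to 0.066).

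Likeness to named loci over the 31 mice, as Pearson's r after the group means were taken out, was computed only for the 36 unnamed loci named by adjusted p. Among these 36 it was highest for MSTRG.25190 with Amot (r = 0.92) and for MSTRG.10225 with Ndufa2 (r = 0.90). Next for MSTRG.10225 came Usp8 (0.90) and Ndufb2 (0.89), and MSTRG.6542 was most like 2310033P09Rik (0.88), then Trmt1 (0.86) and Ndufa13 (0.84). MSTRG.14302 was most like Igf1, the insulin-like growth factor gene (0.76), and MSTRG.4184 most like Cnr1, the cannabinoid receptor gene (0.78). These values share library and depth, come from a choice among all tested named loci and are given as a description.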

How the data were processed

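Hippocampal RNA libraries of 31 mice were grouped by their sample labels. Per the labels and the study's methods, the authors used Trimmomatic 0.38 for trimming, HISAT2 for alignment (GRCm38.p6) and StringTie 1.3.4d to assemble and merge transcripts. They deposited FPKM per locus and mouse, with no scaling between mice beyond that of FPKM. The table holds no read counts, so the depth behind a value is unknown and precision is the spread between mice.

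Tests used limma 3.58.1 (R 4.3.3; moderated, two-sided, with a mean-variance trend) on log2(FPKM + 1) and Benjamini-Hochberg adjustment over the 17139 loci above 1 FPKM in at least 10 mice. An adjusted p under 0.05 is called, and a difference on this scale understates the change of low loci. The 3 comparisons of 1 group with both others combined follow the study, and the 3 pairs come from 1 fit of 3 group means. Comparisons share mice. The unnamed loci and the lists were chosen with earlier results of these data known. Whether mice came from separate litters or cages was not given in the sources used here.

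Named in the text are the 10 highest loci, up to 5 in each direction of each comparison by adjusted p, the 10 with the widest gap between 1 group and all other mice, the 6 split loci with the widest gap and the 5 nearest Lepr on each side; others were chosen after their values were seen. Positions of named genes are from RefSeq (GRCm38.p6), and gene lists of stretches from GENCODE M21 on the same build. Alternatives were a pseudocount of 0.1, no filter, all 31 mice above 1 FPKM, equal medians, quantile normalization, a library-size term, a threshold of 0.01, the replicate number as a block, the read-quality set as a term or each set alone, the slope on transcript length, and leaving out each mouse. The procedure was tested on simulated data. Python 3 libraries were used for tables and plots.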

Additional observations from a re-analysis of the deposited data

Results flagged for a closer look

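Among the loci named in the text, 130 groups of mice were checked for a value far from the rest by Dixon's test at 95%, which chance alone flags in about 1 of 20 groups, and 16 values of 15 loci were found. All are FPKM, each with the nearest value of its group. In db/db-IF mouse 7, MSTRG.11306 had 78.1 (next 113), MSTRG.10754 had 2.42 (next 16.4), MSTRG.28067 had 7.35 (next 6.46) and MSTRG.2648 had 0 (next 31.5). In other db/db-IF mice, MSTRG.18333 had 322 in mouse 10 (next 407), MSTRG.4155 had 9.06 in mouse 1 (next 6.41), MSTRG.9390 had 0 in mouse 10 (next 42.0), and in mouse 9 MSTRG.4642 had 0 (next 18.6) and MSTRG.5693 had 0 (next 2.32). In db/db mouse 10, MSTRG.5067 had 657 (next 581), MSTRG.24456 had 252 (next 208), MSTRG.20727 had 4.73 (next 3.83) and MSTRG.20729 had 4.44 (next 3.57). In other db/db mice, MSTRG.13264 had 1.18 in mouse 4 (next 0.937), MSTRG.4155 had 10.1 in mouse 8 (next 6.82) and MSTRG.6160 had 1.49 in mouse 6 (next 1.11). The 11 db/m mice were not checked in this way.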

How the results depend on the processing

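Counts below are unnamed loci called at an adjusted p under 0.05 by limma. For db/db-IF against both other groups combined (413 called), the higher read-quality set alone gave 230, and 3 were left once each mouse's length slope entered the model. For db/db against the rest (83 called), a threshold of 0.01 gave 28, the replicate number as a block 23, the lower read-quality set alone 4 and the higher set 0. For db/m against the rest (195 called), the threshold of 0.01 gave 54, the lower set 37, the higher set 4 and the slope 59. For db/db-IF against db/db (364 called), the higher set gave 156 and the slope 10. For db/db against db/m (50 called), the threshold of 0.01 gave 26, the block 32, the lower set 16 and the higher set 0. For db/db-IF against db/m (392 called), the higher set gave 176 and the slope 13. The single sets hold fewer mice, and the cause of the other changes was not tested. All other alternatives stayed within 1.5 times the count. Leaving out 1 mouse gave, in the same order, 385 to 419, 56 to 90, 138 to 225, 331 to 390, 42 to 64 and 372 to 410. Without db/db-IF mouse 7 the counts were 385, 81, 177, 339, 64 and 372. Without db/db mouse 10 they were 419, 86, 172, 377, 48 and 397. Counting 1 locus of each pair fixed in ratio gave 410, 83, 193, 362, 50 and 389, and leaving out split loci 413, 82, 195, 363, 50 and 392, both chosen after seeing the data.

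Of 76 named differences 2 changed sign, both with the slope in the fit, where MSTRG.22093 had -0.046 and MSTRG.10754 had 0.29 for db/db-IF over the rest, neither called, and 32 more lost their call. Mice with the same replicate number did not deviate together (29 pairs, r of -0.27 to 0.16, median -0.02, and 2 of 31 mice were most alike to their own number), so the numbers pair no mice. With the replicate number as a block 73 of the 76 stayed on their side of the threshold. Comparing the higher with the lower read-quality set, with group as a further term, limma called 0 of 663 unnamed loci (39 at an unadjusted p under 0.05).

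The table holds no reads, so a value of 0 has no depth behind it, and low loci are least certain. No coordinates were given for unnamed loci, and whether any of them is part of a neighbouring gene was not tested. Slopes and levels of some markers differ between db/db-IF mice and the rest, and for the slope this cannot be told apart from the group.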
